A study of Mus musculus with 18 samples.

Results

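Pooled NIC mammary tumours were compared with normal mammary glands on 2-colour oligonucleotide arrays that measure messenger RNA. The comparison took every array labelled as a NIC tumour pool or as normal mammary gland, which gave 4 RNA samples on 8 arrays, out of 9 RNA samples on 18 arrays in the series. The normal group was 2 samples of whole mammary gland from female FVB/N mice (FVBmg.10, called normal gland 1 here, and FVBmg.18PI, normal gland 2), and the NIC group was 2 pools (T.NICp1 and T.NICp2, NIC pools 1 and 2), each mixed from equal amounts of 5 NIC tumours of female FVB/N mice. All tissue had been flash frozen whole, so every sample holds fat, vessels and immune cells as well as epithelium. The labels give neither ages nor the meaning of 10 and 18PI, and they do not spell out NIC. As background, NIC is the name in mouse mammary research for a strain in which the MMTV promoter, active mainly in mammary epithelium, drives activated ErbB2 together with Cre recombinase from 1 transcript. Each RNA was set against Stratagene universal mouse reference RNA on 2 arrays, once labelled with Cy3 and once with Cy5. With 2 RNA samples in each group precision is low, a pool hides how single tumours vary, and the labels do not say whether the glands came from separate animals, so the p-values reflect how these particular samples vary.

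ErbB2, called HER2 in human breast cancer, is a receptor tyrosine kinase that signals through the Ras-MAPK and PI3K-AKT pathways when it pairs with another ErbB receptor. Mammary epithelium has an inner luminal layer, which makes and secretes milk, and an outer basal layer that contracts. It lies in a pad of fat cells, so whole normal gland carries much RNA from adipocytes, which store lipid and burn fatty acids in their mitochondria.

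A level below is the log2 ratio of sample to reference, averaged over the 2 arrays of an RNA sample, and a difference is the mean of the NIC pools minus the mean of the normal glands, with its standard error (SE). A gene was called when limma gave a Benjamini-Hochberg adjusted p under 0.05 over all 28919 genes or unnamed transcripts, all counted as genes below. Of these, 5377 were called (18.6%): 2542 were higher (8.79%) and 2835 lower (9.8%) in the NIC pools. These shares are the background for every list count below, and they cover bright and dim genes alike. Spot brightness came from the arrays of KI tumours, another group of the series. Above its median, a fit of those genes alone gave 2066 higher and 1364 lower, so the higher share was larger among bright genes. Lists of mostly bright genes, such as ribosome biogenesis (32 of 33), have no background of their own here. The lists were chosen with earlier results of these data known, so setting their counts beside these shares is a description, not a test. The median difference over all genes was −0.057. Where groups are said below not to overlap, this describes the levels that the call already rests on and adds no support to it. The share of all genes without overlap is not given. Among called genes 204 were at least 8-fold higher and 262 at least 8-fold lower. With either NIC pool left out, the spread within groups came from the 2 normal glands alone. With either normal gland left out, it came from the 2 NIC pools alone, which differed less (SD over all genes 0.335 against 0.504). Counts of calls with a sample left out, here and in the lists below, therefore cannot show whether a call needs both samples of a group. Without NIC pool 1 and 2, the median difference of the fatty acid oxidation list was −1.47 and −1.52, against −1.49 with all samples. That of fibroblast markers was −2.5 and −1.51, against −1.86. Calls numbered 4236 without normal gland 1 and 3819 without normal gland 2.

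The arrays kept the groups apart. Across genes, which are not independent replicates, the 16 pairs of a NIC array with a normal array correlated at r = 0.354 to 0.49, and pairs within a group at 0.735 to 0.904. The 2 dye arrays of 1 RNA correlated at 0.941 for normal gland 1 and 0.94 for NIC pool 2, but at 0.817 for normal gland 2 and 0.828 for NIC pool 1. On the Cy5 arrays alone, the 2 normal glands correlated at 0.901 and the 2 NIC pools at 0.904. The dye arrays of normal gland 2, and those of NIC pool 1, were thus less alike than the Cy5 arrays of different RNA samples of a group.

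Marker genes of the tissue's cell types were checked against the labels. The luminal markers had median levels of 0.64 and 0.37 in the normal glands and 1.91 and 2.29 in the NIC pools, and 10 of 14 rose while 0 fell. Krt8 and Krt18, which encode the luminal keratins, rose by 2.31 ± 0.25 and 1.74 ± 0.26. Of 12 basal markers 6 fell, among them the basal keratin gene Krt5 (difference −1.09 ± 0.18), and 1 rose. Adipocyte markers had median levels of 3.70 and 3.14 in the normal glands against 0.37 and 0.074 in the NIC pools, and 12 of 18 fell.

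Of 15 endothelium markers 8 fell and of 15 fibroblast markers 7 fell, with 0 of either list higher. Without normal gland 1 and 2, the endothelium falls numbered 5 and 4, those of fibroblast markers 3 each time, those of basal markers 4 and 3, and the luminal rises 7 each time. Fewer cells of a type and less RNA per cell cannot be told apart in whole tissue, here or in any list below. Ratios to a reference have no true zero, so no marker can be called absent, and the part these shifts play in the lists below was not tested. Among the 2835 lower genes, 983 had levels within 0.25 of 0 in both NIC pools, and among the 2542 higher genes 244 had such levels in both normal glands. Spot brightness on these 8 arrays was not used here, so where sample and reference may both be dim, as for Ccl22 and Cyp2e1 below, the size of a difference is uncertain.

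**Figure D1:**
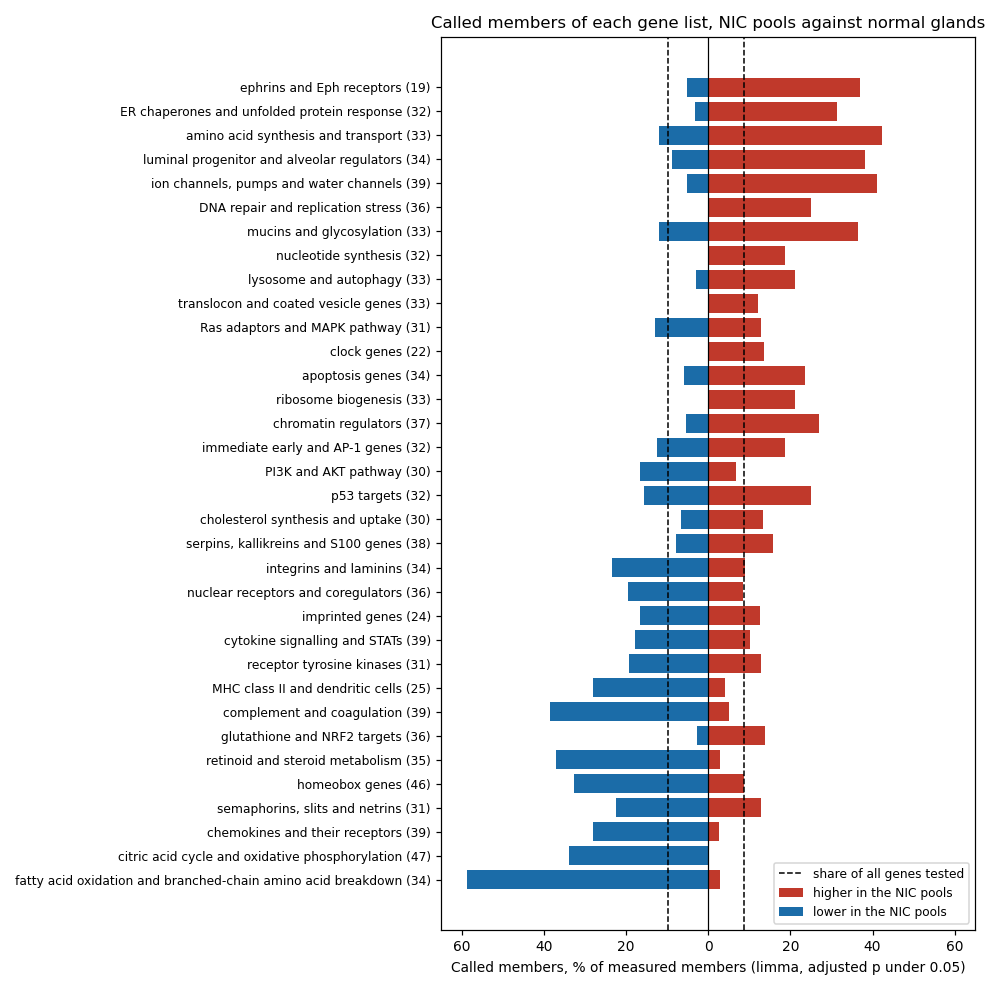
Each row is a list of genes, with the number measured in brackets, and bars give the percentage of its measured members called higher (right) or lower (left) in the NIC pools by limma; dashed lines mark the 8.79% and 9.8% of all genes tested. Lower calls make up 20 of 34 fatty acid oxidation genes and 16 of 47 citric acid cycle genes, and ephrins, the endoplasmic reticulum, amino acids, luminal regulators, ion transport and glycosylation extend beyond the dashed line on the right.

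The endoplasmic reticulum (ER) folds proteins bound for the cell surface or secretion. When its load grows, the sensors IRE1, PERK and ATF6 start the unfolded protein response, in which XBP1 and ATF6 raise chaperone and quality control genes. ATF6 and XBP1 act through the ER stress response element, spelled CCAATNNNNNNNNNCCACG, which was searched on both strands in the 250 bases before each transcription start of the RefSeq table (build GRCm38.p6). It was present for 35 of 27025 genes (0.13%) and for 9 of the 27 list members in that table. By call, these were 2 of the 10 higher members and 7 of the 17 others. The match is a description of the sequence and does not show that a factor binds there. The promoters below are shown because they carry the element in members that behaved differently: Derl3 rose clearly, Pdia6 rose by the probe used and had 2 other probes far apart, and the chaperone genes Hspa5 and Hsp90b1 were not called. Capitals mark the conserved CCAAT and CCACG ends of each element, or their reverse complements where it lies on the other strand, and each run is read 5′ to 3′ along the gene.
Derl3 (chr10:75893148-75893397, plus strand): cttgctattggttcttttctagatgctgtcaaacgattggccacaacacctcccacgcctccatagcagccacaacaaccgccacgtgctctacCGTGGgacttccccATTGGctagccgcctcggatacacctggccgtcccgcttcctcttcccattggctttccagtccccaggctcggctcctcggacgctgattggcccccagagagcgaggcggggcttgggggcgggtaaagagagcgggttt
Pdia6 (chr12:17266339-17266588, plus strand): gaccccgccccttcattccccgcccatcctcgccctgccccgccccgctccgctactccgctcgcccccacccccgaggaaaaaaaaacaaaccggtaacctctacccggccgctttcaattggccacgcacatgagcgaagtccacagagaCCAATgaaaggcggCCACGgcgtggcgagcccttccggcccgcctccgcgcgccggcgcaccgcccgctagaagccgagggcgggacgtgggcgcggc
Hspa5 (chr2:34771840-34772089, plus strand): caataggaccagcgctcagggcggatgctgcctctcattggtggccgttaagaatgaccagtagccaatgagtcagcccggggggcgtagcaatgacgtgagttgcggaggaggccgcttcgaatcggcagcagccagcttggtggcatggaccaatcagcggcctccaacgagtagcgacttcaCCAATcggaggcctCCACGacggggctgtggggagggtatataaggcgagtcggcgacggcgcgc
Hsp90b1 (chr10:86705445-86705694, minus strand): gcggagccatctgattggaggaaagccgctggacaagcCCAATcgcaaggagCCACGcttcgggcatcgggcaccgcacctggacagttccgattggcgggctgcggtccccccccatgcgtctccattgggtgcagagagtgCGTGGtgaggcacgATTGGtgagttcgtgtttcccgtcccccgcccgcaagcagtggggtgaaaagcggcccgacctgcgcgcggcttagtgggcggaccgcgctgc
Hsp90b1 was the only list member with 2 elements in this window.

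Of 32 ER chaperone and unfolded protein response genes measured, 10 rose, 1 fell and 21 were not called, with a median difference of 0.81. Xbp1, the transcription factor of the IRE1 branch, stood at −0.72 and −1.89 in the normal glands and at 2.82 and 2.44 in the NIC pools (3.94 ± 0.47, a 15.3-fold rise, adjusted p = 0.022). Its groups did not overlap, and the normal glands were further apart than the pools. Derl3, a channel component that passes misfolded proteins out of the ER, stood at −1.50 and −1.01 against 1.81 and 2.40 (3.37 ± 0.30, adjusted p = 0.0148).

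Among other higher members, the disulfide isomerase gene Pdia4 stood at −2.73 and −4.33 against −0.16 and −0.31 (3.29 ± 0.60, adjusted p = 0.044). The stress-induced ER gene Sdf2l1 rose by 2.93 ± 0.38. Sel1l, the adaptor of the HRD1 disposal complex, rose by 2.75 ± 0.46 by the probe used and differed by 0.41 by its other probe. P4hb, another disulfide isomerase, rose by 1.70 ± 0.19, and Edem2, which trims mannose from misfolded glycoproteins, by 1.68 ± 0.27. The membrane-bound transcription factor gene Creb3l4 rose by 1.83 ± 0.24.

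The chaperone genes Hspa5 and Hsp90b1 were not called. Hspa5, the master chaperone BiP, stood at −0.23 and −1.09 in the normal glands and at 0.26 and 0.14 in the NIC pools (0.86 ± 0.33, adjusted p = 0.16). Hsp90b1, the chaperone GRP94, had a difference of 0.52 ± 0.20 (adjusted p = 0.16) and of 2.27 on a second probe. Pdia6 rose by 0.60 ± 0.11, and its other probes differed by −0.024 and 3.84. Derl1, a relative of Derl3, fell (−1.37 ± 0.12), with its other probes between −1.43 and 0.47. The count of higher members ran from 2 (Cy3 arrays alone) to 17 (all 9 RNA samples in 1 fit) over 9 alternative settings, and was 11 without normal gland 1 and 6 without normal gland 2.

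Secreted and membrane proteins next receive sugars. O-glycans of the mucin type are started by GALNT enzymes, extended by the core 1 synthase C1GALT1 with its chaperone C1GALT1C1, and often capped with sialic acid, which GNE, NANS and CMAS make in sequence. Of 33 mucin and glycosylation genes 12 rose and 4 fell, with a median difference of 0.55. All 3 sialic acid synthesis genes rose. Gne stood at 0.024 and −0.065 in the normal glands and at 1.56 and 2.24 in the NIC pools (1.92 ± 0.27, adjusted p = 0.028), Nans rose by 2.78 ± 0.13, and Cmas went from −1.79 and −3.04 to 2.59 and 2.35 (4.89 ± 0.48, adjusted p = 0.0174). For none of these did the groups overlap, and the other probes of Gne (1.07 and 3.05) and Nans (2.84) had the same sign.

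St6galnac4, which adds sialic acid to O-glycans, stood at −1.91 and −1.54 against 2.57 and 2.72 (4.37 ± 0.17, its other probe 3.32). Galnt3 was the member highest over the reference, at 5.71 and 4.96 in the NIC pools against 1.09 and 0.74 (4.42 ± 0.32, its other probe 4.79). Galnt7 rose by 3.73 ± 0.44 (its other probe 1.13). C1galt1 and C1galt1c1 rose by 1.65 ± 0.20 and 1.33 ± 0.23.

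Among the lower members, Mgat3, which adds the bisecting N-acetylglucosamine of N-glycans, fell (−2.36 ± 0.17, its other probe −0.27). St6gal1, which places sialic acid on N-glycans, fell (−1.71 ± 0.24, its other probe −0.54). Muc4, a membrane mucin known to bind ErbB2, stood at 1.37 and 3.20 in the normal glands against −0.026 and −0.018, and was not called (−2.30 ± 0.69, adjusted p = 0.099). The normal glands differed by more than the pools did. The count of higher members ran from 7 to 17 over the 9 settings, and was 7 without either normal gland.

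Salt and water transport genes act in luminal cells and, as for Aqp1 and Aqp7 below, in other cells. Of 39 ion channel, pump and water channel genes 16 rose, 2 fell and 21 were not called (median 0.70). The potassium channel gene Kcnn4, opened by calcium, stood at −0.31 and −0.11 in the normal glands and at 3.32 and 3.39 in the NIC pools (3.56 ± 0.12, adjusted p = 0.00775). Kcnk5, a potassium leak channel gene, stood at −0.31 and −0.44 against 3.57 and 3.80 (4.06 ± 0.14, its other probe 0.61). In both the pools lay far above the glands, and samples of a group were within 0.25 of each other.

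Atp1b1, the β subunit gene of the sodium pump, stood at −1.09 and −1.52 against 1.90 and 3.13 (3.82 ± 0.49). Members that move or sense calcium also rose: Atp2c2, a Golgi calcium pump of secretory epithelium, by 3.01 ± 0.47, Orai1, the store-operated calcium channel, by 1.51 ± 0.15, and Stim1, its ER calcium sensor, by 1.09 ± 0.17. Stac2, an adaptor of calcium channels, had the largest rise of the list (5.59 ± 0.18, 48.2-fold) and of all called genes with a current RefSeq symbol.

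Water channels moved both ways. Aqp5, found in glandular epithelium, stood at 0.81 and 0.66 against 3.39 and 3.19 (2.55 ± 0.13). Aqp1, the water channel of vessels, fell by 2.36 (SE 0.28), and Aqp7, the glycerol channel of adipocytes, by 2.05 (SE 0.31). Neither group overlapped the other in any of the 3. The count of higher members ran from 12 to 19 over the 9 settings, and was 14 and 13 without normal gland 1 and 2.

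**Figure D2:**
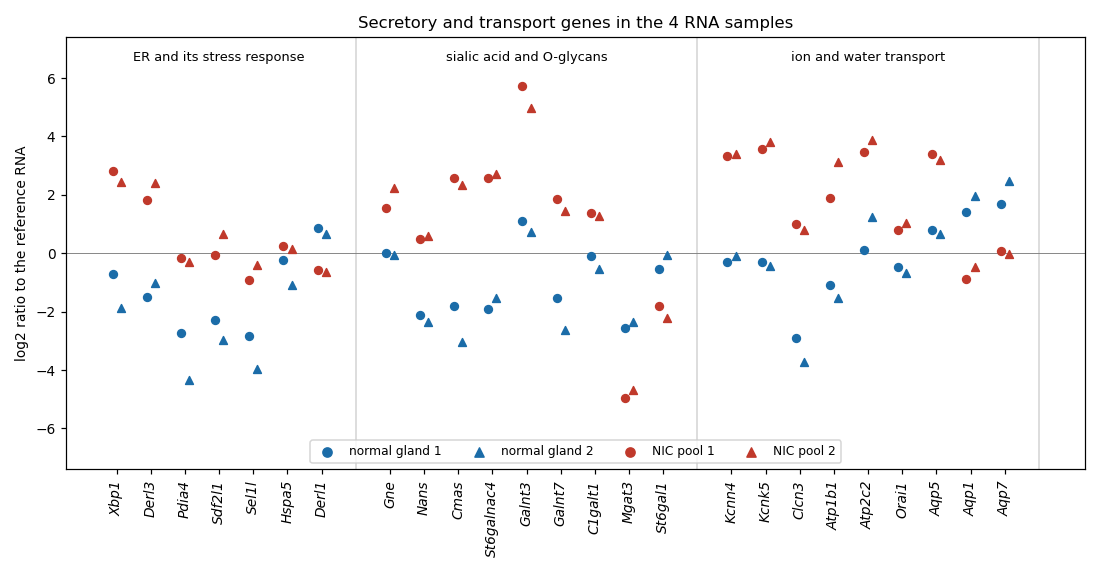
Points are the log2 ratio to the reference RNA (vertical axis) of each of the 4 RNA samples, for genes of the ER and its stress response, of sialic acid and O-glycan synthesis, and of ion and water transport; blue marks normal glands and red NIC pools. Red points lie above blue ones for most genes, for example at 2.82 and 2.44 against −0.72 and −1.89 for Xbp1, and below them for Derl1, Mgat3, St6gal1, Aqp1 and Aqp7.

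Luminal progenitors and alveolar cells are specified by GATA3, ELF5, SOX9, SOX10 and related factors. Of 34 such regulators and surface markers 13 rose and 3 fell (median 0.73). Id2, an inhibitor of basic helix-loop-helix factors needed for alveolar growth, stood at −1.50 and −2.44 in the normal glands and at 2.50 and 2.35 in the NIC pools (4.39 ± 0.36, its other probe 5.12). Hey1, a Notch target, stood at 1.52 and 1.53 against 4.77 and 4.81 (3.27 ± 0.094). The tetraspanin gene Tspan8, a luminal surface marker, rose by 4.24 ± 0.37.

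Among other transcription factor genes, Tfap2c, of the AP-2 family, rose by 2.78 ± 0.40, Spdef, of the ETS family, by 2.50 ± 0.42, Gata3 by 1.95 ± 0.20 and Elf3 by 1.93 ± 0.26. Sox10 rose by 2.21 ± 0.21 (its other probe 0.62). Grhl2, a guardian of the epithelial state, rose by 1.83 ± 0.34, though its other probes lay between −0.15 and 0.94.

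The defining alveolar factor was already far above the reference in the normal glands. Elf5 stood at 4.78 and 5.60 there and at 5.74 and 5.96 in the NIC pools (0.66 ± 0.33, adjusted p = 0.23). Kit, the stem cell factor receptor of luminal progenitors, stood at 4.56 and 4.13 against 4.63 and 4.92 (0.43 ± 0.22, adjusted p = 0.23). Neither was called, and in each the NIC levels lay only just above the higher gland. Socs2, induced by prolactin and STAT5, rose by 3.26 ± 0.16, whereas Wnt4, a progesterone target, fell (−0.71 ± 0.14).

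Among hormone receptors, the oestrogen receptor gene Esr1 fell by 0.65 (SE 0.12), with its other probe at −0.16. The progesterone receptor gene Pgr lay between −0.020 and 0.0071 in all 4 samples. Spot brightness on these arrays was not used, so an unchanged level and a dim spot cannot be told apart here. The count of higher luminal regulators ran from 7 to 20 over the 9 settings, and was 9 and 10 without normal gland 1 and 2.

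Of 31 receptor tyrosine kinase genes 4 rose and 6 fell, the higher share being nearer to the background than in the lists above. Erbb2 stood at −1.08 and −1.29 in the normal glands and at 0.39 and 0.81 in the NIC pools (1.79 ± 0.20). Its second probe went from −0.062 and −0.071 to 1.82 and 1.68, and the remaining probe from −0.34 and 0.092 to 0.22 and 0.31. All 3 probes had both pools above both glands. Which transcript the probes detect, that of the transgene or of the gene itself, was not tested. Ctnnb1, β-catenin, differed by 0.25, 1.24 and 1.41 by its 3 probes, and Axin2, a Wnt feedback inhibitor with 1 probe, by −4.68. Erbb3, a partner of ErbB2, stood at 1.54 and 2.02 against 3.56 and 3.69 (1.85 ± 0.21, other probes −0.030 to 0.85), and Tyro3, a receptor of the TAM family, rose by 2.85 ± 0.11 (other probes 0.25 to 1.83).

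Ntrk2, the receptor for brain-derived neurotrophic factor, stood at 5.92 and 5.90 against 1.65 and 1.83 (−4.17 ± 0.11, its other probe −3.91). Pdgfra and Pdgfrb, receptors of fibroblasts and pericytes, differed by −3.82 ± 0.43 and −1.52 ± 0.13, and the angiopoietin receptor gene Tek by −3.16 ± 0.41. Csf1r, the macrophage growth factor receptor, fell by 1.09 (SE 0.11), while its other probes lay between −0.25 and 0.35.

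Eph receptors and their membrane-bound ephrin ligands guide cell contact and sorting. Of 19 measured, 7 rose and 1 fell (median 0.83). Epha7 stood at 0.12 and 0.090 in the normal glands and at 4.23 and 4.21 in the NIC pools (4.11 ± 0.094, its other probe 2.32). Epha2, a receptor that cooperates with ErbB2 in mouse mammary tumours, stood at −2.002 and −1.965 against 1.46 and 0.37 (2.90 ± 0.42), and its ligand gene Efna1 at −0.78 and −1.22 against 0.86 and 1.73 (2.29 ± 0.37). The pools lay above the glands in all 3 but were further apart for Epha2 than for Epha7. Ephb3, Ephb4 and Epha1 rose by 2.08, 2.02 and 1.95 (SE 0.24, 0.12 and 0.12). Ephb2 fell (−0.84 ± 0.11), with its other probe at 0.045. Counts of higher members ran from 5 to 10 over the 9 settings, and were 5 and 4 without normal gland 1 and 2.

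For the lists of pathway genes downstream of ErbB2 the counts were close to those of all genes. Of 31 Ras adaptor and MAPK genes 4 rose and 4 fell (median 0.41), and of 30 PI3K and AKT genes 2 rose and 5 fell (median 0.13). Without normal gland 2 these counts were 1 and 2, then 1 and 3, and without normal gland 1 they were 4 and 3, then 2 and 2. Over the 9 settings, higher Ras adaptor and MAPK genes ran from 2 to 11 and lower ones from 1 to 6. Higher PI3K and AKT genes ran from 0 to 6 and lower ones from 1 to 8. Mapk3, the kinase ERK1, rose by 1.68 ± 0.13, and the adaptor gene Grb7, next to Erbb2 in the genome, by 2.02 ± 0.26. Rasgrp3, a Ras activator of lymphocytes and vessels, fell by 2.82 (SE 0.14), and Mtor, the growth kinase itself, fell by 2.07 (SE 0.31). Immediate early genes, which growth factors switch on within minutes, numbered 6 higher and 4 lower among 32 (median 0.17). With columns scaled to 1 spread they numbered 5 and 8, with a median of −0.51, and quantile normalization gave 6 and 5 with a median of −0.15. Higher members numbered 9 without normal gland 1. Ier3 stood at −3.18 and −3.64 against 1.34 and 2.27 (5.22 ± 0.40). Klf2 showed opposite probes: the one used rose by 2.70 ± 0.15, and the other differed by −2.92.

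Cells that divide need nucleotides, ribosomes and DNA repair. Of 36 DNA repair and replication stress genes 9 rose and 0 fell (median 0.64), of 32 nucleotide synthesis genes 6 rose and 0 fell (0.55), and of 33 ribosome biogenesis genes 7 rose and 0 fell (0.33). Rrm2, a subunit of ribonucleotide reductase, stood at −3.59 and −3.63 in the normal glands and at −0.82 and −0.75 in the NIC pools (2.83 ± 0.10). All 4 lay below the reference RNA, as did every sample of the checkpoint kinase gene Chek1 (1.57 ± 0.14, its other probe 3.26), the recombination gene Rad54l (1.89 ± 0.15, its other probe −0.63) and the nuclease gene Exo1 (1.99 ± 0.24). Gar1, a component of small nucleolar particles, rose by 3.74 ± 0.36.

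These counts depended on how the columns were scaled. With all columns scaled to 1 spread, 4 DNA repair genes were higher and 3 lower, 2 nucleotide genes were higher and 2 lower, and 2 ribosome genes were higher and 4 lower, and the median ribosome difference turned to −0.12. Quantile normalization left 2, 4 and 3 higher, in that order, with 3 ribosome genes lower. On the Cy3 arrays alone 2, 1 and 1 were higher, and on the Cy5 arrays alone 12, 12 and 8. Without normal gland 1 the counts were 6, 2 and 4, and without normal gland 2 they were 13, 3 and 2.

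Of 37 chromatin regulators 10 rose and 2 fell. Kdm6b, which removes methyl groups from lysine 27 of histone H3, stood at −2.998 and −2.990 against 1.18 and 1.57 (4.37 ± 0.17, 20.7-fold). Uhrf1 and Dnmt1, which copy DNA methylation after replication, rose by 2.30 ± 0.18 and 1.46 ± 0.17, and the histone methyltransferase gene Ezh2 by 1.24 ± 0.13. Hmga2, a fetal chromatin protein gene, fell from −3.33 and −3.57 to −4.34 and −4.42 (its other probe −2.03). Among 34 apoptosis genes 8 rose and 2 fell: the mitochondrial effector gene Bax rose by 1.92 ± 0.15, and Birc3, an inhibitor of apoptosis, fell by 1.72 (SE 0.19). Higher apoptosis genes numbered 4 without normal gland 1 and 2 without normal gland 2.

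Amino acid supply split by gene. Of 33 synthesis and transport genes 14 rose and 4 fell (median 0.80). Higher genes built proline and moved 1-carbon units: Pycr1, which makes proline, rose by 1.20 ± 0.16, and Shmt1 and Shmt2, which split serine, by 1.68 ± 0.11 and 1.26 ± 0.10. Trib3, a stress-induced pseudokinase, stood at −3.31 and −2.89 against −0.31 and −0.10 (2.90 ± 0.20), but its other probe differed by 0.20. The leucine transporter pair Slc7a5 and Slc3a2 rose by 0.86 ± 0.14 and 0.83 ± 0.12 (the other probe of Slc3a2 differed by 3.97).

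The 4 lower members included 3 that handle glutamine or glutamate. Slc1a5, a glutamine transporter, stood at 2.57 and 3.05 in the normal glands against −2.14 and −2.29 (−5.03 ± 0.21, a 32.6-fold fall), and Slc1a3, a glutamate transporter, at 3.69 and 4.02 against −1.42 and −1.52 (−5.32 ± 0.16, its other probe −1.27). Glul, glutamine synthetase, stood at 4.22 and 3.97 against −0.18 and 0.34 (−4.02 ± 0.24, its other probes −0.86 and −0.65). In each of these both glands lay above both pools. Asns, asparagine synthetase, was not called (−1.02 ± 0.41, adjusted p = 0.17). Counts of higher members ran from 7 to 15 over the 9 settings, and were 9 and 10 without normal gland 1 and 2.

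Mitochondrial breakdown of fatty acids and of branched-chain amino acids had the highest share of lower genes among the lists that are not cell type markers. Of 34 measured genes 20 fell, 1 rose and 13 were not called, with a median difference of −1.49 that lay between −1.57 and −1.47 when each RNA sample was left out. Cpt2, which imports fatty acids into mitochondria, stood at 2.58 and 2.81 in the normal glands and at −0.037 and −0.34 in the NIC pools (−2.88 ± 0.17, a 7.36-fold fall). Acadl, Acadm and Acadvl, the acyl-CoA dehydrogenases of long, medium and very long chains, differed by −2.57 ± 0.38, −2.32 ± 0.29 and −1.84 ± 0.10. Cpt2 had the largest fall of the list.

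Etfa, Etfb and Etfdh, whose products pass on electrons from these dehydrogenases, differed by −1.48, −2.13 and −2.14 (SE 0.21, 0.20 and 0.14), with the other probe of Etfdh at 0.19. In branched-chain breakdown Bckdhb, of the dehydrogenase complex, differed by −1.97 ± 0.14, Mccc1 by −2.41 ± 0.18 and Aldh6a1 by −2.58 ± 0.20. The only higher member was Bckdk, the kinase that switches that complex off (1.20 ± 0.21). The count of lower members ran from 11 to 23 over the 9 settings, and was 20 without either normal gland.

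Of 47 citric acid cycle and oxidative phosphorylation genes 16 fell and 0 rose (median −1.03). Citrate synthase, Cs, stood at 1.83 and 1.33 in the normal glands and at −0.41 and −0.53 in the NIC pools (−2.05 ± 0.21, its other probe −1.41). Fumarase, Fh1, differed by −1.95 ± 0.15 and the succinyl-CoA ligase gene Sucla2 by −2.22 ± 0.31 (other probes −2.64 to −0.99). Respiratory subunits fell by less: Uqcrc2 of complex III by 1.48 (SE 0.23), Cox4i1 of complex IV by 1.12 (SE 0.21) and Ndufv1 of complex I by 0.66 (SE 0.12).

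Pdk4, the kinase that keeps pyruvate out of the cycle when fat is burned, had the second largest fall of all called genes with a current symbol. It stood at 5.24 and 5.34 against −2.20 and −2.07 (−7.42 ± 0.11, a 171-fold fall, adjusted p = 0.00775). In this list the 2 normal glands themselves differed: 43 of 47 members were lower in normal gland 2 than in normal gland 1, with a median of gland 2 minus gland 1 of −0.63. The count of lower members was 8 without normal gland 1 and 23 without normal gland 2, and ran from 4 (Cy3 alone) to 25 over the 9 settings.

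**Figure D3:**
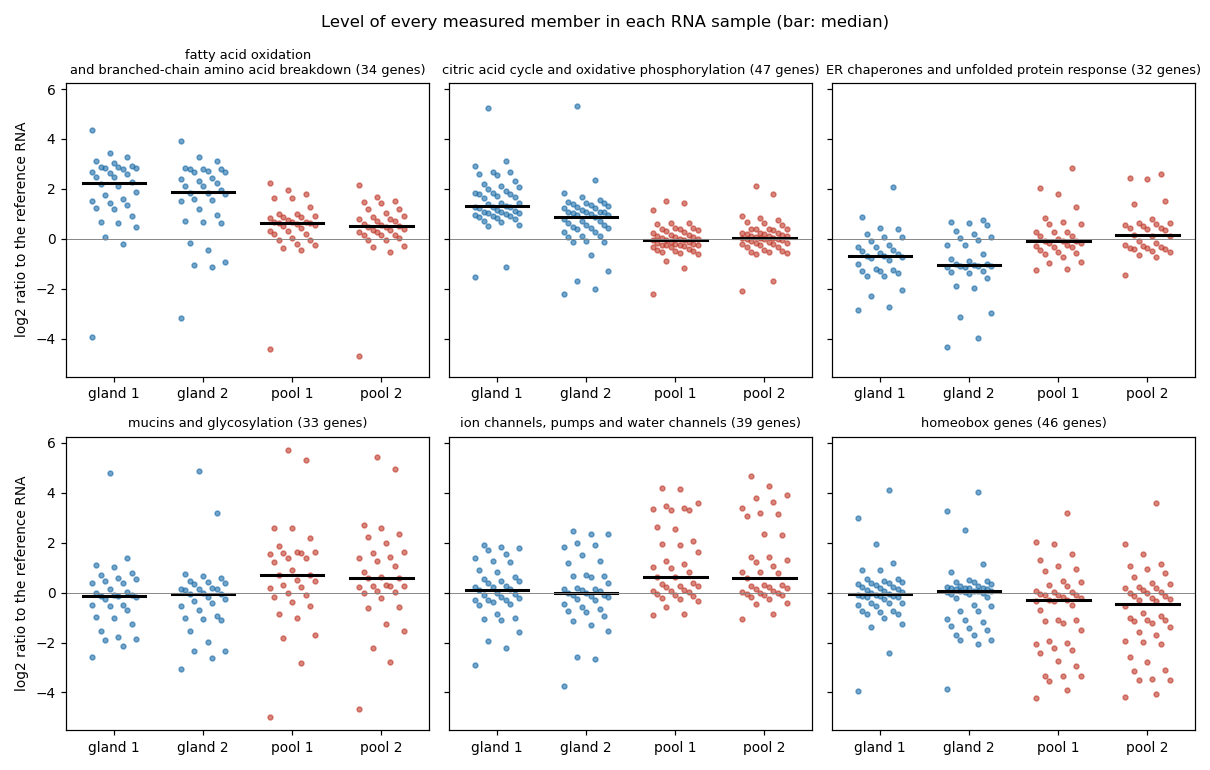
Each point is 1 gene's log2 ratio to the reference RNA (vertical axis) in 1 RNA sample (horizontal axis), for 6 of the lists, with a bar at the list's median; blue marks normal glands and red NIC pools. In the citric acid cycle panel gland 2 lies below gland 1 and both pools lie lower still, and in the glycosylation and ion panels the pools reach above 4.

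Adipocytes and other stromal cells also store and activate retinol and steroids. Of 35 retinoid and steroid genes 1 rose and 13 fell (median −0.42). Rbp4, the retinol carrier secreted by fat and liver, stood at 5.44 and 5.11 in the normal glands against −1.89 and −2.97 (−7.71 ± 0.43, a 209-fold fall), the largest fall of all called genes with a current symbol. Hsd11b1, which makes active glucocorticoid, stood at 5.49 and 4.76 against −0.64 and −1.34 (−6.12 ± 0.38). Cyp2e1, an ethanol and fatty acid hydroxylase, differed by −5.01 ± 0.34, but the reference RNA was well above background for its probe on only 1 of the 10 arrays of KI tumours, another group of the series, whose scanner files show spot brightness.

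The single rise was Crabp2, which carries retinoic acid to its nuclear receptor: it stood at −0.0096 and 0.13 against 4.03 and 4.23 (4.07 ± 0.13). Aldh1a1, which makes retinoic acid, fell by 2.57 (SE 0.27). The count of lower members was 12 without normal gland 1 and 6 without normal gland 2, and ran from 7 to 16 over the 9 settings. Pparg, the master regulator of fat cells, fell by 4.37 (SE 0.20), from 3.76 and 3.29 to −0.83 and −0.85.

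Homeobox genes, of which the Hox family records position along the body axis, held 4 higher and 15 lower among 46 (median −0.43). The falls of the Hox family lay in 3 of its 4 clusters. Of the 38 Hox genes measured, 10 fell (4 of 11 in Hoxa, 3 of 8 in Hoxc and 3 of 9 in Hoxd) and 2 rose, both in Hoxb, where 0 of 10 fell. Hoxc9 stood at −0.12 and 0.81 in the normal glands and at −3.52 in both NIC pools (−3.86 ± 0.36). Hoxd4 stood at 0.45 in both glands against −2.95 and −2.79 (−3.33 ± 0.11), and Hoxc10 fell by 3.35 (SE 0.11), with its other probe at −0.27.

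In the Hoxb cluster Hoxb2 rose by 2.00 ± 0.11 by the probe used, but its other probe differed by −0.35, and Hoxb4 rose by 1.23 ± 0.14. Hoxb7 was lower in the NIC pools but just missed the threshold (−0.75 ± 0.16, adjusted p = 0.054). The difference between clusters was not tested. Outside the clusters, Irx5, an Iroquois factor, stood at 0.0015 and 0.17 against 3.18 and 3.58 (3.30 ± 0.19), and Meis2, a cofactor of Hox proteins, fell (−2.69 ± 0.14, its other probe −1.87). Lower homeobox members ran from 6 to 22 over the 9 settings, and numbered 11 and 14 without normal gland 1 and 2.

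**Figure D4:**
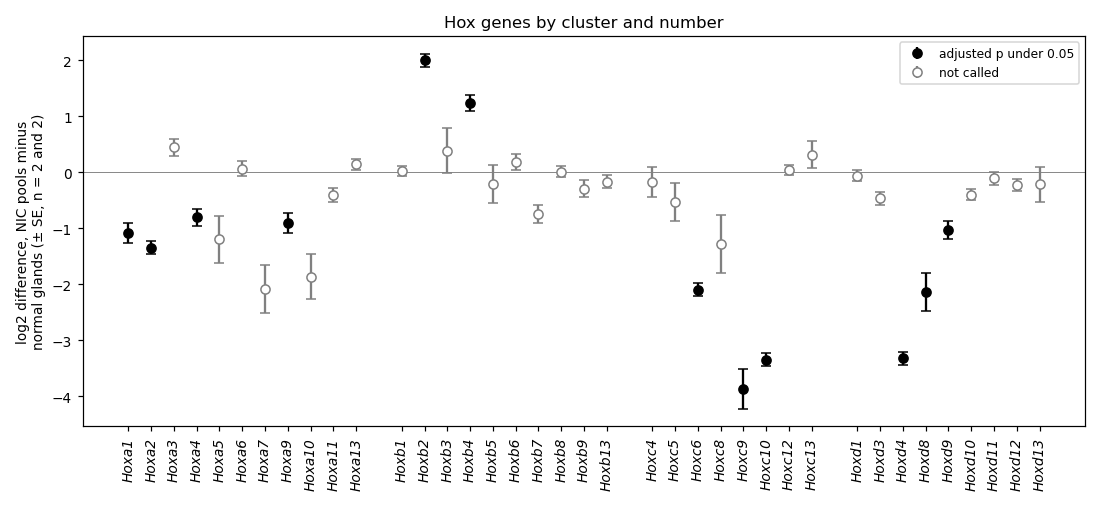
Points are the log2 difference between NIC pools and normal glands (vertical axis) with its standard error (n = 2 and 2) for the 38 measured Hox genes, ordered by cluster and number; filled points passed the limma test. The filled points of Hoxa, Hoxc and Hoxd lie below 0, down to −3.86 for Hoxc9, and those of Hoxb (Hoxb2 and Hoxb4) lie above it.

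Complement, the blood-borne defence cascade, is made in part by stromal cells and macrophages. Of 39 complement and coagulation genes 2 rose and 15 fell. The 2 that rose were C1qa and C1qb, subunits of the recognition protein C1q made by macrophages (2.03 ± 0.14 and 1.89 ± 0.17). The proteases that join C1q fell: C1ra stood at 0.69 and 1.47 in the normal glands against −2.18 and −3.06 (−3.70 ± 0.45), and C1s1 fell by 3.43 (SE 0.24). C3, on which all routes converge, fell by 3.77 (SE 0.39), though its other probe differed by −0.076.

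Thbd, thrombomodulin, an anticoagulant of vessel walls, stood at 0.96 and 0.72 against −3.74 and −3.85 (−4.63 ± 0.13). Of 15 macrophage markers 2 rose and 1 fell. Lower complement and coagulation members numbered 9 and 7 without normal gland 1 and 2, and ran from 8 to 17 over the 9 settings, 7 members being higher with columns scaled to 1 spread.

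Of 39 chemokine and chemokine receptor genes 1 rose and 11 fell. Cxcl12, made by stroma, stood at 0.72 and 1.03 against −2.83 and −3.72 (−4.15 ± 0.36, its other probe −1.89). Its receptor gene Cxcr4 was the single rise, from −1.97 and −2.12 to 0.37 and 0.39 (2.42 ± 0.11, its other probe 1.13). Lymphoid chemokines and receptors were among the falls, with Cxcl13 at 4.61 and 3.80 against 0.90 and 0.20 (−3.65 ± 0.41), Ccr7 at −2.005 ± 0.34 and Cxcr5 at −1.52 ± 0.10. In the same samples 8 of 18 B and T cell markers fell, 9 on the Cy3 arrays alone and 1 on the Cy5 arrays alone. Of these markers 17 were lower in normal gland 2 than in normal gland 1, with a median of gland 2 minus gland 1 of −1.06 on Cy5 and −0.083 on Cy3. Ccl22 fell by 1.95 (SE 0.34), but the reference was well above background for it on 0 of the 10 KI arrays. The count of lower chemokine members ran from 6 to 17 over the 9 settings, and was 11 without either normal gland.

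Of 25 genes of antigen presentation by MHC class II and of dendritic cells 7 fell and 1 rose. Irf4 and Irf8, transcription factors of these cells, differed by −2.94 ± 0.12 and −2.03 ± 0.10 (the other probe of Irf8 by −1.39), and the costimulator gene Cd86 by −2.30 ± 0.15. The 1 rise, H2-DMb2, had its other probe at −0.73. Of 15 mast cell genes 6 fell and 0 rose, among them Cma1 (from 3.79 and 4.75 to 0.70 and 0.52), Mcpt4 (−2.39 ± 0.10) and Cpa3 (−2.37 ± 0.13). Fcer1a, the IgE receptor subunit that defines mast cells, lay between −0.033 and 0.59 in all 4 samples and was not called.

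Of 34 integrin and laminin genes, which join cells to the basement membrane, 3 rose and 8 fell (median −0.023). Lamb1 stood at 0.93 and 1.70 against −2.17 and −2.74 (−3.77 ± 0.37), the muscle and stroma laminin gene Lama2 fell by 3.56 (SE 0.51), and the linker gene Nid1 by 3.02 (SE 0.32). Lower members numbered 6 and 5 without normal gland 1 and 2, and higher ones 6 and 8. The epithelial integrin genes Itgb6 and Itga6 rose by 1.89 ± 0.15 and 1.47 ± 0.11. Of 21 pericyte and smooth muscle genes 9 fell and 0 rose, with Myl9 at −2.56 ± 0.27 and Tagln at −1.81 ± 0.26. Acta2, smooth muscle actin, fell by 2.03 (SE 0.21) by the probe used, but its 4 other probes ran from −3.08 to 2.44.

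Further lists are given by their counts, higher first, and their median difference. These were 32 p53 targets (8 higher, 5 lower, median 0.086) and 36 nuclear receptors (3 and 7, −0.028). Then came 39 cytokine genes (4 and 7, −0.12) and 31 semaphorin, slit and netrin genes (4 and 7, −0.47). Next were 33 lysosome genes (7 and 1, 0.52), 36 glutathione genes (5 and 1, −0.40) and 30 cholesterol genes (4 and 2, 0.049). Others were 24 imprinted genes (3 and 4, −0.043) and 38 serpin, kallikrein and S100 genes (6 and 3, −0.011). The last were 33 translocon genes (4 and 0, 0.50) and 22 clock genes (3 and 0, 0.40). The glutathione median thus went against its counts. Its counts were 2 and 8 on the Cy5 arrays alone, and 4 and 1 on the Cy3 arrays alone. Without normal gland 1 the translocon counts were 9 and 0, clock 6 and 0, p53 targets 6 and 3, glutathione 4 and 3, and nuclear receptors 1 and 6. Without normal gland 2 the p53 counts were 5 and 1, glutathione 4 and 5, cholesterol 1 and 3, imprinted genes 1 and 2, nuclear receptors 3 and 4, and semaphorins 2 and 6. Cdkn1a, the cell cycle inhibitor p21, rose by 2.14 ± 0.38, and the clock gene Per1 by 1.90 ± 0.14. Stat3, an acute response factor, rose by 1.96 ± 0.30, with its other probe at 0.064.

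Some of the 30 largest rises among genes with a current symbol lay outside the lists above. Car12, a carbonic anhydrase, stood at −1.44 and −1.50 against 4.09 and 3.71 (5.37 ± 0.17, its other probe 1.72). Bhlha15, the factor MIST1 of secretory cells, rose by 4.98 ± 0.40 (its other probe 0.66), Qsox1, a disulfide-forming enzyme, by 4.31 ± 0.20 (2.17) and the vesicle cargo gene Ergic3 by 4.32 ± 0.44. Col11a1, a fibrillar collagen gene, stood at 0.27 and 0.24 against 4.89 and 4.45. St8sia6, a sialyltransferase gene, rose from 2.37 and 1.11 to 5.10 and 6.77, the widest spread within both groups among the genes named in this paragraph.

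Among the 30 largest falls, Fgf10, the stromal growth factor of mammary budding, stood at 1.41 and 1.63 against −3.69 and −3.49 (−5.11 ± 0.14). Enpp2, autotaxin, which makes lysophosphatidic acid, stood at 1.67 and 1.90 against −3.65 and −3.60, and Efemp1, a fibulin gene, at −0.013 and 0.27 against −4.03 and −5.24. For none of these did the groups overlap.

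Differences inside a group are given without a test, since each group has 2 RNA samples. Between the normal glands, 32 genes with a current symbol were over 2 log2 units higher in normal gland 2 and 105 in normal gland 1, counting those with 1 sign in both dyes. The NIC pools had 15 such genes higher in pool 2 and 9 higher in pool 1. Over all genes the SD of the difference was 0.504 between glands and 0.335 between pools, and the differences of the Cy3 and Cy5 arrays correlated across genes at 0.573 and 0.156.

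Among the genes higher in normal gland 2, Csn2, β-casein, stood at 4.61 in gland 1 and 7.23 in gland 2, and Wap, whey acidic protein, at −0.21 and 3.24. Mest, an imprinted gene of growing fat, had the largest difference (0.75 and 4.72). Skeletal muscle genes such as Myh4, a fast myosin, were 4.99 higher on the Cy5 arrays and 0.81 on the Cy3 arrays, and Mylpf 5.01 and 0.38. Over the 13 skeletal muscle markers the median difference was 3.61 on Cy5 and 0.11 on Cy3, and 11 of the 13 were higher in gland 2.

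Among the genes higher in normal gland 1, Acly, which makes acetyl-CoA from citrate for fatty acids, stood at 3.43 and −0.76, and Idh1, which yields NADPH, at 1.63 and −2.20. Those 2 genes and the other 10 with the largest differences in this direction had larger differences on the Cy3 than on the Cy5 arrays.

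Among the genes higher in NIC pool 1, Cfd, adipsin of fat cells, stood at 4.99 in pool 1 and 0.59 in pool 2, and Adipoq, adiponectin, at 2.24 and 0.00060. Mmp3, a stromal protease, stood at −0.80 and −3.53 and the collagen gene Col3a1 at −0.090 and −1.82. Of the 15 fibroblast markers 14 were higher in pool 1, and the median of pool 2 minus pool 1 was −1.05.

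Among the genes higher in NIC pool 2, Pip, prolactin-inducible protein, stood at 0.21 in pool 1 and 3.64 in pool 2, Reg3b, an antibacterial lectin, at 0.13 and 3.16, and Agr2, an ER isomerase of mucous cells, at 0.13 and 2.51. Csn2 differed here as it did between the glands, at 3.86 and 6.70. Dcpp1 and Scgb1b27 were higher by 5.48 and 4.61 on the Cy5 arrays but by 0.20 and 0.020 on the Cy3 arrays, and belong to families of near-identical genes that probes may not tell apart.

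**Figure D5:**
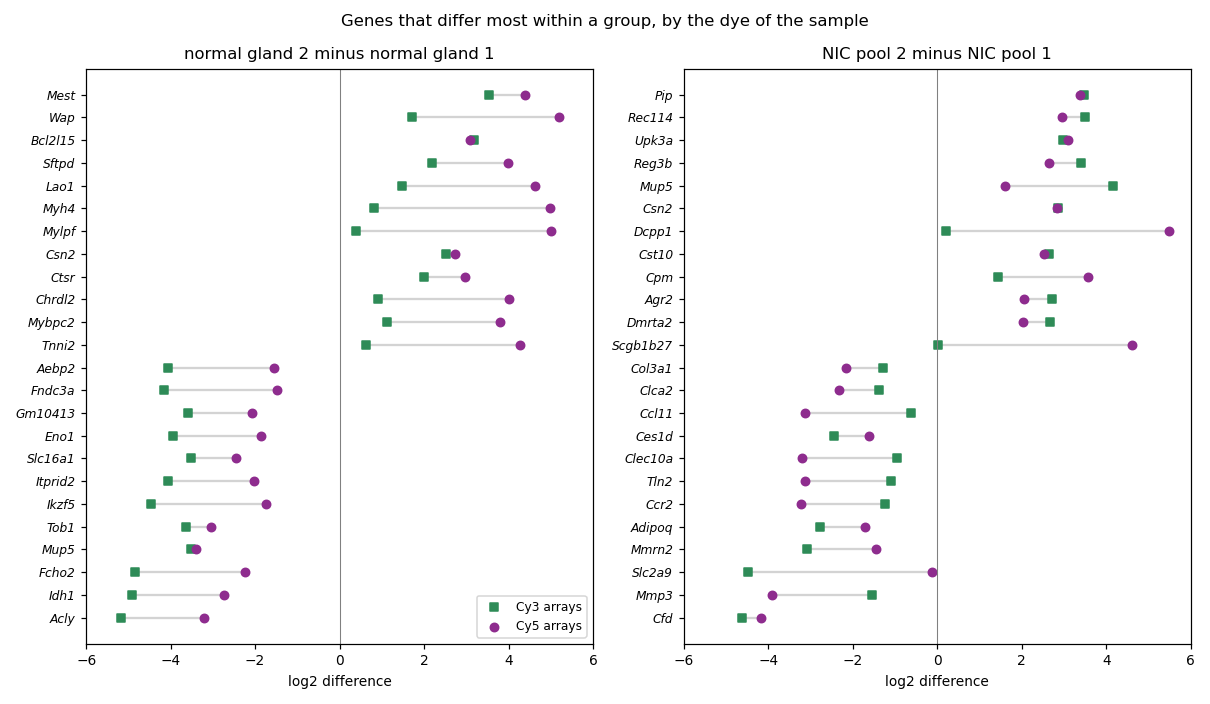
For the 24 genes that differ most between the 2 normal glands (left) and the 24 between the 2 NIC pools (right), points give the log2 difference of the second sample minus the first (horizontal axis) on the Cy3 arrays (squares) and on the Cy5 arrays (circles). Myh4 and Mylpf reach about 5 on Cy5 and stay below 1 on Cy3, while Csn2, Pip and Upk3a have nearly equal values in both dyes.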

How the data were processed

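Messenger RNA was measured on Agilent 2-colour mouse arrays, with 2 dye-swapped arrays for each of 2 normal glands and 2 NIC pools. The authors deposited a table of log2 ratios for these 8 arrays; the submitters' processing notes name RMA without its role, and further steps were not stated there. The scale and direction of this table were taken by analogy with the table of the KI arrays, whose columns correlated with their deposited scanner values at r = 0.982 to 0.988. Per the file headers, the intensity and log10 ratio columns of those 10 scanner files came from Agilent Feature Extraction. Spot brightness of the normal and NIC arrays was not used here, and 0 columns of the tables were left out. Probes were named from the scanner files, and 41174 probes gave 28919 genes or unnamed transcripts, with symbols updated through RefSeq (GRCm38.p6). For 10140 probes the name in the files was kept. Each gene was represented by its brightest probe, taken from mean KI array signals (normexp with offset 50, then loess).

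Dye arrays were averaged per RNA sample, and groups were compared with lmFit and eBayes (limma 3.58.1, R 4.3.3 and the package data.table, version 1.17.8) at a Benjamini-Hochberg adjusted p of 0.05. The script was tested on simulated data. Named genes were, per list, up to 8 called members in each direction and members central to the list; over all genes, from the 30 largest called rises and 30 largest falls; within a group, from the 12 largest differences in each direction with 1 sign in both dyes; and all probes of Erbb2, Ctnnb1 and Axin2. Lists and genes were chosen with earlier results of these data known. The alternatives were each dye alone, the RNA as a random block, all 9 RNA samples in 1 fit, the mean of a gene's probes, scaled columns, quantile normalization, bright genes alone, a variance trend, and each RNA sample left out. Figures were drawn with matplotlib 3.10.9.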

Additional observations from a re-analysis of the deposited data

How the results depend on the processing

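The 5377 genes called became 2048 on the Cy3 arrays alone. They became 10634 with the RNA as a random block and 10395 with all 9 RNA samples in 1 fit. Among bright genes alone, a setting that tests fewer genes, they became 3430, and for the other 3 the cause was not tested. The random block fit takes both dye arrays of each RNA sample, and the fit of all 9 also takes its spread from KI tumours. The upper ends of several ranges above came from these 2 fits. Leaving out each RNA sample in turn gave 0 to 4236 calls, with 0 for either NIC pool. With a sample left out, the lone sample is assumed to vary like the other group. Of 156 named genes called, 79 were called under every alternative that left out no RNA sample and could test them. Among the 156, the difference of Klf2 turned to −0.11 with the mean of its probes. No paired analysis was possible because the normal glands and the NIC pools share no replicate numbers in the labels. The spread rests on 2 RNA samples a group, and dim spots could not be told from bright ones on these arrays.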
